A study of Mus musculus with 18 samples.

Results

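Mouse melanoma cells exposed to tunicamycin for 12 h were compared with cells given vehicle. The comparison took in all 19938 genes that had a probe set naming a single symbol, each read by its brightest such probe set, and 6 of the 18 arrays of the study, 3 for each group. The cells were of 1 line, B16 F10.9-4, a derivative of the B16 mouse melanoma in which doxycycline switches on overexpression of LIP, the short inhibitory isoform of the transcription factor C/EBPbeta. Neither group compared here had received doxycycline. The other 12 arrays, 3 in each group, held cells given tunicamycin for 5 h, doxycycline alone, and doxycycline followed by tunicamycin for 5 h or 12 h. All 6 treatments were run in each of 3 independent experiments, so the 3 arrays of a group are separate experiments on 1 line and not separate lines or animals. The labels do not state the tunicamycin dose. No vehicle array is labelled with a time, so how long those cells were kept is not known. Tunicamycin for 12 h and a difference in time in culture therefore cannot be told apart.

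Tunicamycin blocks DPAGT1, the enzyme that makes the first lipid-linked sugar of N-glycosylation, and glycoproteins that lack their sugars fold poorly in the endoplasmic reticulum (ER). Poorly folded protein is sensed by 3 membrane proteins. PERK phosphorylates the initiation factor eIF2alpha, which lowers general translation and favours translation of the transcription factor ATF4; IRE1 splices the Xbp1 messenger RNA; and ATF6 is cleaved to release a transcription factor. Together they are known to raise ER chaperones, secretory machinery and amino acid supply, and, when the stress lasts, genes linked to growth arrest and cell death such as Ddit3, which encodes CHOP.

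Values are log2 signals of the probe sets, so a difference of 1 is a 2-fold difference, and changes were taken between arrays for the same gene. Across genes, levels served as a rough guide, as in the receptor percentile and the summed marker signals below. The median log2 signal lay between 7.32 and 7.37 on the 6 arrays, and arrays within a group correlated across genes at 0.998 to 0.999. Among 1179 olfactory and vomeronasal receptor genes, used as a stand-in for silent genes, the median log2 signal was 4.75 and the 95th percentile 6.09, and 5 rose and 7 fell. All 10 melanocyte markers lay above that percentile, and their summed signal was between 15.74 and 15.78 on the log2 scale with vehicle and between 15.66 and 15.73 at 12 h. Of these markers 4 fell and none rose. Dcn and Lum were the fibroblast markers below the percentile, and 5 of 7 lay above it, with a summed signal of 9.58 to 9.65 with vehicle and 9.62 to 9.90 at 12 h. Col1a2 was the fibroblast marker that rose (0.26, limma adjusted p = 0.0355), and it did not pass when any array but the second at 12 h was left out. Leukocyte markers passed it for 2 of 6 genes and their sum was lower at 12 h, 8.80 to 8.87 against 9.16 to 9.23, with Cd68 the only one that fell (-0.72), or 2 fell without the third array at 12 h. Endothelial markers passed it for 2 of 5 genes and epithelial markers for 2 of 6, and none of either list changed. The part of other cell types in the results was not tested.

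At 12 h, 2365 genes (11.9% of those tested) were higher and 3151 (15.8%) were lower than with vehicle at a limma adjusted p under 0.05, which is the meaning of rose and fell throughout. Most of these changes were small: the median size over all called genes was 0.32 on the log2 scale, and 187 genes (0.938%) changed by at least 2-fold, of which 154 rose and 33 fell. Changes of at least 4-fold were found in 23 genes and all of them were rises. The 3 values of each group did not overlap in 39.1% of all genes tested, which is the background for any statement on overlap below. Likewise, 11.9% up and 15.8% down are the background for every list count at 12 h against vehicle below. A count near these shares says nothing particular about its list, also where the shares are not repeated. The median change over all genes was 0.001.

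**Figure D1:**
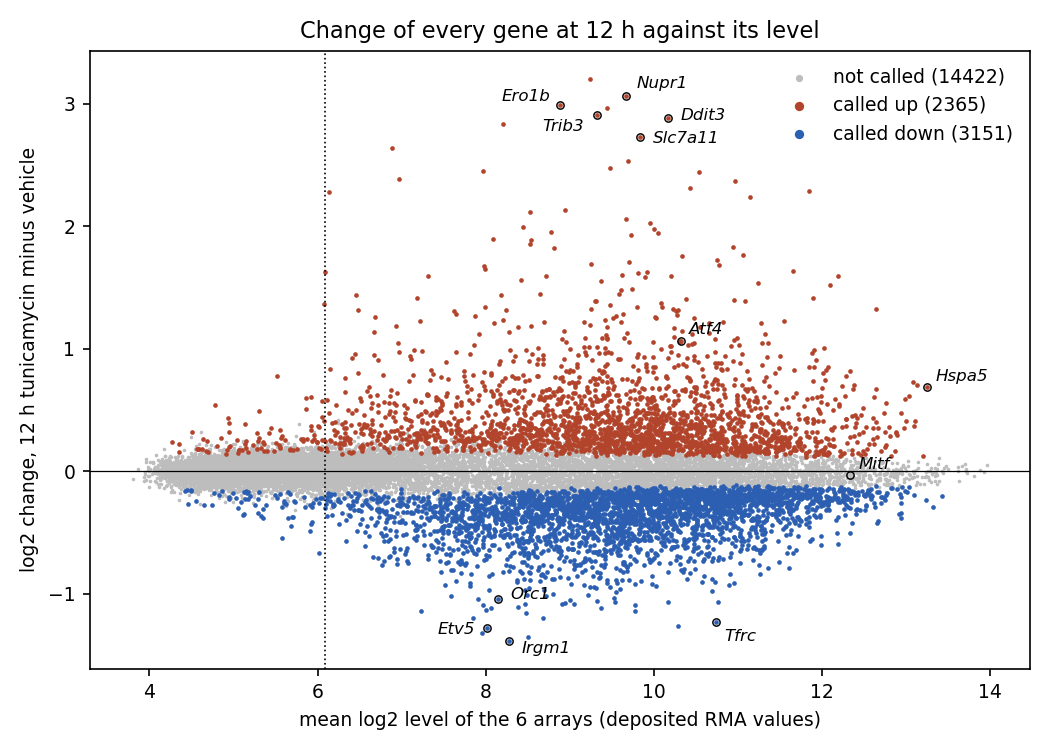
Change at 12 h of tunicamycin against vehicle (log2, vertical) by mean level over the 6 arrays (log2, horizontal), 1 point per gene. Grey points are the 14422 genes not called, coloured points the 2365 that rose and the 3151 that fell, and the dotted line is the 95th percentile of the receptor genes, 6.09; the rises reach further from 0 than the falls.

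The largest rise among genes with an established name was that of Nupr1, a small stress-induced chromatin protein. Its log2 signal was 8.21, 8.00 and 8.20 with vehicle and 11.24, 11.17 and 11.19 at 12 h, so that the lowest array at 12 h lay far above the highest with vehicle. The change was 3.06 ± 0.09 (SE, n = 3 a group), or 8.36-fold, with a limma adjusted p of 1.27e-14. Next came Ero1b, an ER oxidase that drives disulfide formation, which read 7.32, 7.49 and 7.35 with vehicle and 10.28, 10.36 and 10.50 at 12 h, a change of 2.99 ± 0.09. The other members of the top 5 were Ppp1r15a (2.96), whose product GADD34 directs dephosphorylation of eIF2alpha, the pseudokinase gene Trib3 (2.91) and Ddit3 (2.89). The ranks below held Cyb5r2 (2.83) and Cyb5r1 (2.37), which encode cytochrome b5 reductases; the cystine transporter Slc7a11 (2.73); the Notch-linked repressor Hey2 (2.64); the calcium-binding Nucb2 (2.53); Lhfpl2 (2.48); the inflammatory caspase Casp4 (2.45); the mitochondrial folate enzyme Aldh1l2 (2.45); the fatty acid elongase Elovl3 (2.39); and Chac1 (2.31), which degrades glutathione. With vehicle, Hey2 and Elovl3 read below the 95th percentile of the receptor genes. A clone-named gene, 1810010H24Rik, which the naming rule leaves out and which was picked after its values were seen, had the highest change of any gene, 3.20: its arrays read 7.74, 7.52 and 7.65 with vehicle and 10.94, 10.79 and 10.80 at 12 h.

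The falls were smaller. Irgm1, an interferon-inducible GTPase, had the largest, from 9.04, 8.84 and 9.03 with vehicle to 7.74, 7.76 and 7.25 at 12 h (-1.38 ± 0.13, limma adjusted p = 1.3e-07). Kank4 (-1.35), the cyclic AMP sensor Rapgef3 (-1.32), the ETS factor Etv5 (-1.28), the zinc importer Slc39a10 (-1.26) and the transferrin receptor Tfrc (-1.23) followed. The remaining 9 of the 15 largest falls were Ccnjl (-1.20), the prokineticin receptor Prokr1 (-1.19), Spsb4 (-1.16), Mknk2 (-1.14), a kinase of the cap-binding factor eIF4E, Nrep (-1.13), the DNA demethylase Tet1 (-1.12), Tnfaip8 (-1.11, and -0.437 on its dimmer probe set), Klhl30 (-1.11) and Rassf2 (-1.09).

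**Figure D2:**
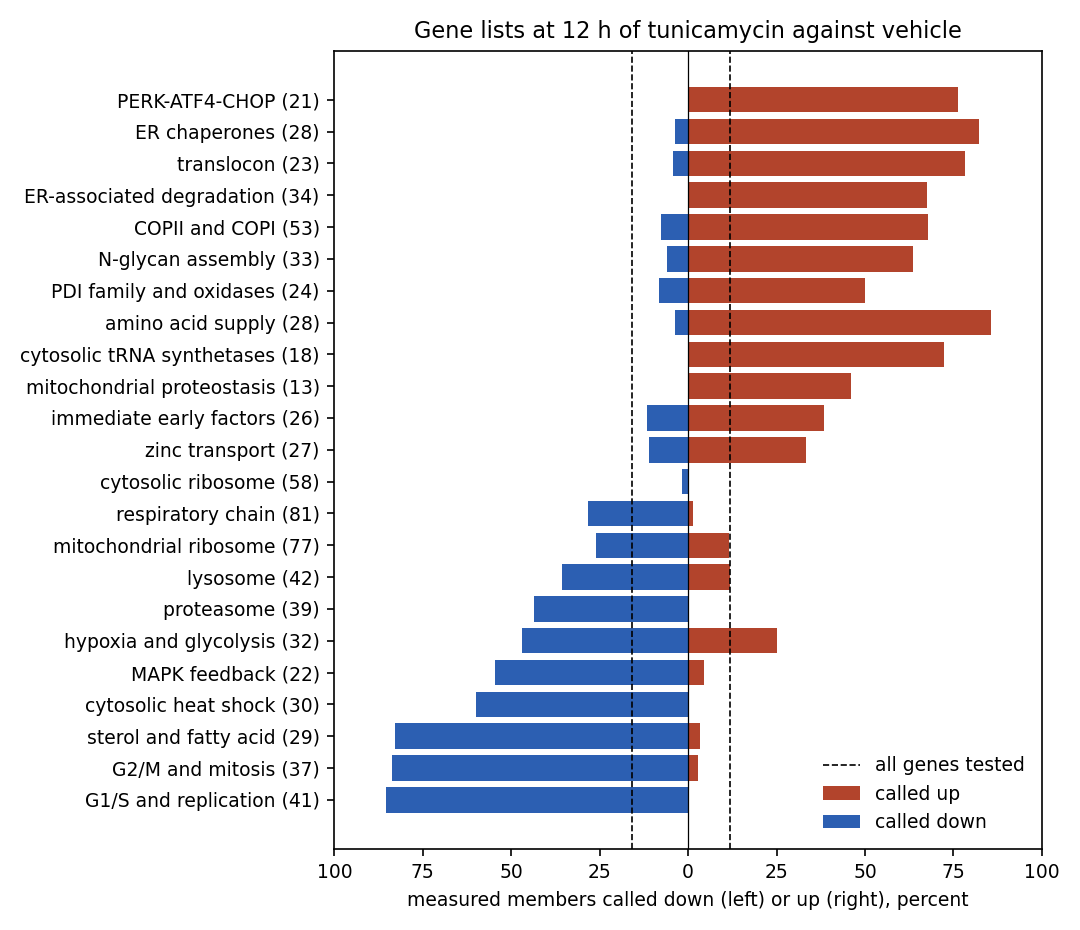
Percent of the measured members of 23 gene lists that rose (right) and fell (left) at 12 h of tunicamycin, with dashed lines at the values for all genes, 11.9% and 15.8%. Lists of ER folding, secretory transport and amino acid supply lie to the right, and the cell cycle and sterol lists to the left.

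The sensors and ER-bound transcription factors came first among the lists. Of 15 measured, 7 rose and 4 fell, with a median change of 0.14 against 0.001 over all genes. Without the first array at 12 h, 2 of these genes fell, and without the first experiment 1 fell. Atf6 read 10.46, 10.32 and 10.36 with vehicle and 11.74, 11.74 and 11.84 at 12 h, with no overlap, and rose by 1.39 ± 0.06 (2.63-fold). Xbp1 rose by 0.99, Ern1, the gene for IRE1, by 0.85, and Eif2ak3, the gene for PERK, by 0.85. So all 3 sensor genes and the target of IRE1 splicing were higher, by 1.81-fold to 2.63-fold. The arrays do not separate spliced from unspliced Xbp1, and they do not measure phosphorylation or cleavage. Eif2ak2, which encodes the double-stranded RNA kinase PKR that also acts on eIF2alpha, fell from 9.83, 9.75 and 9.73 to 8.99, 9.21 and 8.98 (-0.71 ± 0.09), and Eif2ak4, the kinase for amino acid shortage, fell by 0.17.

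Of the ER chaperones, co-chaperones and prolyl isomerases, 23 of 28 rose and 1 fell, and the median change was 0.39. Hspa5 encodes BiP, the main ER chaperone of the HSP70 family. It read 12.90, 12.89 and 12.92 with vehicle and 13.68, 13.53 and 13.57 at 12 h and rose by 0.69 ± 0.05 (limma adjusted p = 3.81e-09), and the groups did not overlap. Hsp90b1, the ER member of the HSP90 family, rose by 0.62 ± 0.05. The larger rises lay in partners of BiP and in small ER proteins: Dnajb9, a co-chaperone that also restrains IRE1, rose by 2.24, from 9.97, 9.95 and 10.13 to 12.30, 12.21 and 12.26; the prolyl isomerase Fkbp11 rose by 1.67; Creld2 by 1.59; and Hyou1, an exchange factor for BiP, by 1.41. Cnpy4 was the member that fell (-0.38). Among protein disulfide isomerases and ER oxidases, 12 of 24 rose and 2 fell (median 0.16), or 1 fell without the third vehicle array or the first or the third array at 12 h. After Ero1b the largest rises were those of Pdia5 (1.04), Pdia6 (0.96) and Ero1a (0.80), and the peroxidase Gpx8 fell (-0.24).

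ER-associated degradation takes misfolded protein back to the cytosol and the proteasome. Of its 34 measured genes, 23 rose and none fell, with a median of 0.30. Herpud1, a scaffold of the membrane ligase, rose from 10.65, 10.77 and 10.67 to 12.99, 12.99 and 12.97, a change of 2.29 ± 0.06. The ligase itself, Syvn1, rose by 1.68, its partner Sel1l by 1.64, and the VCP-recruiting selenoprotein Selenos by 1.33.

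An ER stress response element (ERSE), searched on both strands as CCAAT, any 9 bases, then CCACG in the 250 bases before to 50 after the start, was held by 21 of 15563 genes with a RefSeq promoter, 0.135%. It was held by 0.681% of promoters of genes that rose, 0.0395% of genes that fell and 4.69% of genes that rose at least 2-fold. Among the ER chaperones 6 of 24 promoters held it. Promoter stretches are shown because 6 of the chaperone promoters hold the element, although Dnajb9 and Herpud1, with larger rises than Hspa5, are not among its holders; the first 3 are the called genes with the largest rise that hold it before the start, and Hspa5 and Creld2 were added after their values were seen. All are GRCm38.p6, 5′ to 3′ on the gene's strand, with the element in capitals; a match is a description of letters, not of binding. Ero1b is at chr13:12565657-12565725 (+), Zfp57, a zinc finger gene that rose by 2.00, at chr17:37002467-37002524 (+), Syvn1 at chr19:6046507-6046575 (+), Hspa5 at chr2:34772000-34772068 (+) and Creld2 at chr15:88819495-88819563 (+).
Ero1b: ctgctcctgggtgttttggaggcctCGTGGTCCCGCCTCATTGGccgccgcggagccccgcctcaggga
Zfp57: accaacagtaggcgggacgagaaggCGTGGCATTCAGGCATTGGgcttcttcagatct
Syvn1: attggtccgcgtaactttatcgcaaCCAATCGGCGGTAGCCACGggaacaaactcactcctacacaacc
Hspa5: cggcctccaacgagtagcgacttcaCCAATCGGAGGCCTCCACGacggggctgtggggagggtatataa
Creld2: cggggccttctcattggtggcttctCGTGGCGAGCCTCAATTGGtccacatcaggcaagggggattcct
In Ero1b, Zfp57 and Creld2 the element lies on the opposite strand and so reads CGTGG to ATTGG. The stretches differ in the 9 middle bases. A shorter element linked to XBP1 (UPRE, TGACGTGG) was held by 0.912% of all promoters and by 2.15% of those of genes that rose, and by 0.592% of those of genes that fell.

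Other ER functions moved unevenly. Among ER calcium genes 7 of 22 rose and 2 fell, or 5 fell with array weights. Nucb2 read 8.43, 8.43 and 8.42 with vehicle and 10.96, 10.96 and 10.96 at 12 h, and Wfs1, whose product wolframin sits in the ER membrane, rose by 2.06. The ER calcium pump Atp2a3 rose by 0.76 and Saraf, which limits store-operated entry, by 0.70, while the calcium sensor Stim2 fell by 0.65 and the channel Itpr3 by 0.60. Conjugation of the ubiquitin-like protein UFM1, which acts on ribosomes at the ER, had 5 of 7 genes that rose, led by the ligase Ufl1 (1.25) and its partner Cdk5rap3 (0.82), and 1 that fell, the protease Ufsp1 (-0.25). Receptors of ER-phagy, the removal of ER by autophagy, split into 2 of 9 that rose, Calcoco1 (0.33) and Ccpg1 (0.27), and 3 that fell, with Retreg3 the lowest (-0.88). Of 6 RNAs known as cleavage substrates of IRE1, Hgsnat (-0.84) and Bloc1s1 (-0.46) fell and none rose. Bloc1s1 read 11.22, 11.17 and 11.30 with vehicle and 10.72, 10.85 and 10.74 at 12 h, without overlap.

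The pathway that tunicamycin blocks was higher at several of its steps. Of 33 genes for dolichol, lipid-linked sugars and the oligosaccharyltransferase, 21 rose and 2 fell (median 0.24), or 1 fell without the first or the third vehicle array or the third array at 12 h. Dpagt1, the gene for the drug's target, read 10.36, 10.28 and 10.29 with vehicle and 11.06, 10.90 and 10.91 at 12 h, and rose by 0.65 ± 0.06, or 1.57-fold (limma adjusted p = 8.15e-08). The mannosyltransferase Alg12 rose the most (1.53), followed by the oligosaccharyltransferase subunit Tmem258 (0.96), the glucosylphosphoryl dolichol synthase Alg5 (0.93) and the mannosyltransferase Alg2 (0.69), and Alg14, which acts directly after Dpagt1, fell (-0.25). Supply of sugar nucleotides had 9 of 19 rises and 4 falls. All 4 leading rises were enzymes of GDP-mannose or UDP-N-acetylglucosamine synthesis: Gmppb (1.44), Gnpnat1 (1.08), Pgm3 (1.01) and Gfpt1 (0.94), the entry enzyme of the hexosamine route. Its paralog Gfpt2 fell (-0.41), as did the phosphomannomutase Pmm1 (-0.64). Of the 12 glucosidases, mannosidases and their partners 5 rose and 4 fell, with Prkcsh, the regulatory subunit of glucosidase II, at 0.54 and the Golgi mannosidase Man1c1 at -0.61.

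Genes for entry into and exit from the ER mostly rose. Of 23 genes for signal recognition, the translocon and signal peptidase, 18 rose, by 0.22 to 0.68, and Tram2 fell (-0.62). The signal recognition receptor genes Srprb (0.68) and Srpr (0.56), the translocon partner Sec63 (0.58) and the signal peptidase subunit Sec11c (0.55) led. Of 53 genes of COPII and COPI coats and cargo receptors, 36 rose and 4 fell, or 2 fell without the third array at 12 h. None of the 53 fell without the first experiment and 1 without the third. The median of the translocon list was 0.37 and that of the coat list 0.29. Sec24d, a cargo adaptor of the COPII coat, read 8.92, 8.94 and 8.96 with vehicle and 10.91, 10.97 and 11.03 at 12 h (2.03 ± 0.06), whereas its paralog Sec24b fell (-0.20). Arfgap3 rose by 1.28, the retrieval receptor Kdelr3 by 1.22 and the fusion protein gene Stx5a by 1.21.

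The regulators and targets of PERK, ATF4 and CHOP held the highest median of the ER stress lists described here, 1.07, with 16 of 21 members that rose and none that fell. Ddit3 read 8.84, 8.49 and 8.84 with vehicle and 11.60, 11.61 and 11.62 at 12 h, and rose 7.40-fold (2.89 ± 0.08, limma adjusted p = 1.34e-14). Ppp1r15a read 8.02, 7.86 and 7.99 and then 10.90, 10.91 and 10.96, and Trib3 7.95, 7.95 and 7.70 and then 10.77, 10.76 and 10.80. No array overlapped between groups in these 3 genes. Atf4 itself rose by 1.07 ± 0.06 and Atf3, a repressor of the same basic leucine zipper class, rose by 1.71. Of 6 C/EBP genes, 3 rose: Ddit3, Cebpg (1.17) and Cebpb (0.96), whose probe set does not separate LIP from the longer isoforms. The 5 members that did not pass, named after their values were seen, were Fgf21 (0.16), Adm2 (0.12), Vldlr (-0.01), Stc2 (-0.05) and Tnfrsf10b (-0.09), the gene for the death receptor DR5.

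**Figure D3:**
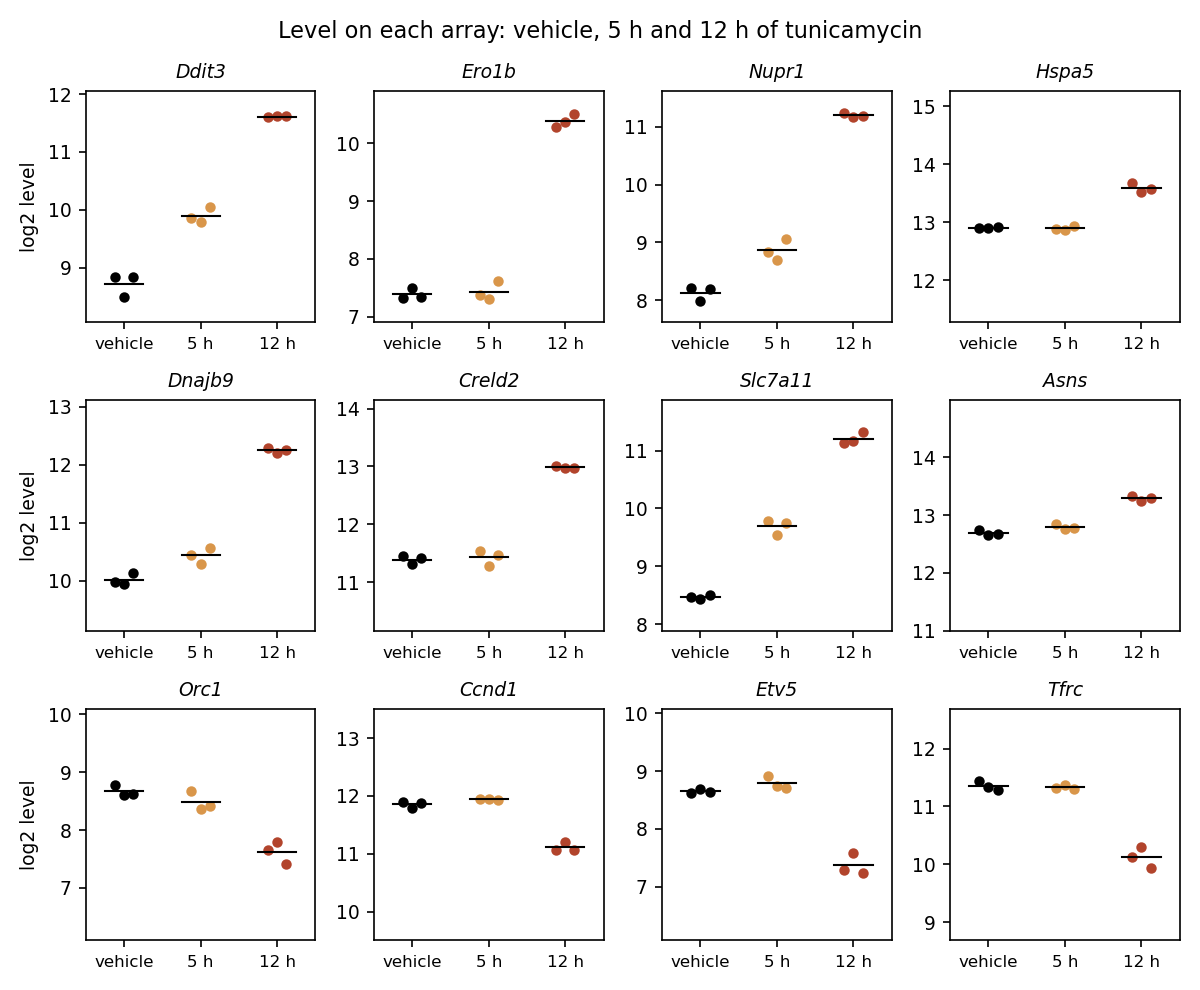
Log2 signal on each array with vehicle, at 5 h and at 12 h of tunicamycin, for 12 genes, with bars at the group means; every panel spans 4 log2 units. Ddit3, Ero1b, Nupr1 and the ER chaperone genes are highest at 12 h, and Orc1, Ccnd1, Etv5 and Tfrc are lowest there.

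Genes of amino acid supply were mostly higher. Of 28 genes for amino acid synthesis and transport 24 rose and 1 fell, with a median of 0.64. Slc7a11, which imports cystine in exchange for glutamate, read 8.47, 8.43 and 8.51 with vehicle and 11.12, 11.17 and 11.32 at 12 h, a 6.65-fold rise. The neutral amino acid carrier Slc1a4 (1.98) and the glycine carrier Slc6a9 (1.77) followed Aldh1l2. In one-carbon metabolism the mitochondrial Aldh1l2 rose from 9.43, 9.26 and 9.24 to 11.78, 11.71 and 11.77, and the cytosolic serine hydroxymethyltransferase Shmt1 fell (-0.37 ± 0.06). Of 18 cytosolic aminoacyl-tRNA synthetases 13 rose and none fell (median 0.43), led by those for tryptophan (Wars, 1.00), leucine (Lars, 0.94), threonine (Tars, 0.85) and cysteine (Cars, 0.77). Of 16 mitochondrial ones 5 rose and 1 fell, with a median of 0.06. The asparagine enzyme Nars2 led them (0.72), and Lars2 fell (-0.25).

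The C/EBP-ATF response element (CARE, TGATGNAA on either strand) was held by 3.62% of all promoters, by 4.40% of those of genes that rose, 2.33% of those of genes that fell and 13.3% of those of genes that rose at least 2-fold. It was held by 7 of 19 promoters in the PERK, ATF4 and CHOP list (36.8%), 4 of 11 for cytosolic tRNA synthetases (36.4%) and 4 of 22 for amino acid genes (18.2%). When the 50 bases after the start were left out, the holders were 6 of 19, 2 of 11 and 3 of 22, or 31.6%, 18.2% and 13.6%, against 3.14% of all promoters. The 3 called genes with the largest rise that hold it before the start are shown with the element in capitals, 5′ to 3′ on the gene's strand in GRCm38.p6. Nupr1 is at chr7:126625548-126625605 (-), Slc7a11 at chr3:50443628-50443704 (-) and Chac1 at chr2:119351024-119351081 (+).
Nupr1: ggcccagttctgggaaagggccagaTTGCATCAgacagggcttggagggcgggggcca
Slc7a11: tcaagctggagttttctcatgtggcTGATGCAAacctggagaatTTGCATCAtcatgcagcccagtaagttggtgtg
Chac1: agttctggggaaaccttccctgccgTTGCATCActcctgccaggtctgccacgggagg
Slc7a11 holds 2 matches, 1 on each strand, and Nupr1 and Chac1 hold 1 each, on the opposite strand, where it reads TTGCATCA in all 3 genes.

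Other genes of protein synthesis were read outside the synthetases. Of 37 initiation factors 7 rose and 6 fell, with a median of -0.0018, against 11.9% up and 15.8% down over all genes. The falls lay near that share, and numbered 2 without the first experiment and 1 without the third. Eif4ebp1 (0.55), which represses cap-dependent initiation, led the rises, and its paralog Eif4ebp2 had the largest fall (-0.52). Of 58 cytosolic ribosomal protein genes none rose and 1, Rpl37a (-0.32), fell. Ribosome biogenesis had 6 rises and 6 falls among 30 genes, with Nop14 at 0.56 and Nhp2 at -0.35. Its falls numbered 3 without the first experiment and 1 without the third, and its rises 3 without the third. Among 13 mitochondrial chaperones and proteases 6 rose and none fell. The matrix protease Lonp1 read 10.42, 10.36 and 10.43 with vehicle and 11.43, 11.40 and 11.46 at 12 h (1.03 ± 0.05), the co-chaperone Dnaja3 rose by 0.91 and the matrix HSP70 Hspa9 by 0.52. Hspd1 and Hspe1, the matrix chaperonin genes added here after their values were seen, read 0.01 and -0.02 and did not pass.

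Genes of cell division mostly fell. In the G1/S and DNA replication list, 35 of 41 measured members fell and none rose, with a median of -0.56. Orc1, the largest subunit of the origin recognition complex, read 8.78, 8.60 and 8.62 with vehicle and 7.66, 7.80 and 7.41 at 12 h, a fall of 1.04 ± 0.09. The activating factor E2f2 fell by 1.01, the maintenance methylation factor Uhrf1 by 0.88 and the cyclin Ccne2 by 0.85. Ccnd1, the cyclin that couples growth signals to the cycle, read 11.89, 11.80 and 11.87 with vehicle and 11.06, 11.21 and 11.06 at 12 h, without overlap (-0.74, 1.67-fold lower, limma adjusted p = 5.7e-09). Of 37 genes of G2/M and mitosis 31 fell and 1 rose, with a median of -0.30. Ccnf (-0.70), the checkpoint kinase Bub1b (-0.62), the centromere protein Cenpf (-0.57) and the kinesin Kif20b (-0.53) fell the most, and the cohesin protector Sgo1 rose (0.21). In bulk RNA, fewer cells in a phase and less RNA per cell cannot be told apart. Cdkn1a, which encodes the inhibitor p21, was not analysed here.

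An E2F site (TTTCGCGC or TTTGGCGC, either strand) was held by 12 of 35 promoters of the G1/S list (34.3%), 1.31% of all promoters, 2.80% of those of genes that fell and 1.21% of those of genes that rose. The cell cycle homology region (CHR, TTTGAA, either strand), a short motif, was held by 22 of 31 promoters of the G2/M list (71.0%), 17.3% of all promoters, 14.5% of those of genes that fell and 12.2% of those of genes that rose. Both shares depended on the bases after the start: without them 7 of 35 G1/S promoters (20.0%) held the E2F site, against 1.07% of all promoters, and 11 of 31 G2/M promoters (35.5%) held the CHR, against 15.7% of all promoters. The 2 genes of each list with the largest fall that hold the motif before the start, a choice made after their values were seen, are printed with the motif in capitals, 5′ to 3′ on the gene's strand in GRCm38.p6. Orc1 is at chr4:108579402-108579453 (+), Uhrf1 at chr17:56304103-56304160 (+), Ccnf at chr17:24251410-24251564 (-) and Kif2c, a mitotic kinesin that fell by 0.50, at chr4:117178845-117178900 (-).
Orc1: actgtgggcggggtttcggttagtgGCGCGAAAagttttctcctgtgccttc
Uhrf1: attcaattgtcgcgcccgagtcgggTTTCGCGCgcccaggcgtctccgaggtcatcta
Ccnf: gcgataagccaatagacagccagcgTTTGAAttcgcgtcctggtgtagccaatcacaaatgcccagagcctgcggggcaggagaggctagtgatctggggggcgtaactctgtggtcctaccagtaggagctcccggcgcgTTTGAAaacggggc
Kif2c: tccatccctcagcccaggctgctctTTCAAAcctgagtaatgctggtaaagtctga
Ccnf holds 2 matches within 130 bases of its start, and the other 3 genes hold 1 each.

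Feedback and output genes of MAP kinase signalling were mostly lower. Of 22 such genes 12 fell and 1 rose (median -0.22). The list holds inhibitors of the pathway, such as Spred2, and also genes downstream of ERK that do not restrain it, such as Etv5, Etv1 and Ccnd1. Etv5, an ETS factor downstream of ERK, read 8.63, 8.69 and 8.64 with vehicle and 7.29, 7.59 and 7.25 at 12 h, a fall of 1.28 ± 0.09. Etv1 fell by 1.08 and the inhibitor Spred2 by 0.89, and Ier3 was the member that rose (0.26). Among 24 receptor tyrosine kinases 9 fell, led by Met (-0.76), Ephb4 (-0.54) and Igf1r (-0.50), and 3 rose, led by the collagen receptor Ddr2 (0.91). Among immediate early factors 10 of 26 rose and 3 fell. Their falls numbered 5 without the second array at 12 h or with quantile normalization repeated, and 6 with array weights or with dim genes left out. The antiproliferative Btg1 (1.03) and the orphan receptors Nr4a3 (0.62) and Nr4a2 (0.60) led the rises, and their relative Nr4a1 fell (-0.45). The AP-1 site TGANTCA, which FOS and JUN proteins bind, was held by 8.06% of all promoters, 5.61% of those of genes that rose and 5.45% of those of genes that fell. ID, TGF-beta and BMP genes had 6 rises and 5 falls among 21, or 3 falls without the third vehicle array or the first array at 12 h. The repressor Tgif1 rose by 1.31 and the inhibitors of differentiation Id3 and Id1 by 0.86 and 0.34, while the ligand Tgfb3 fell by 0.89.

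Genes of cholesterol and fatty acid synthesis mostly fell. Of 29 measured 24 fell and 1 rose, with a median of -0.39. Hsd17b7, a late enzyme of cholesterol synthesis, read 10.12, 10.05 and 10.05 with vehicle and 8.81, 9.26 and 8.96 at 12 h (-1.06 ± 0.09, limma adjusted p = 2.43e-08). The elongase Elovl6 fell by 0.97, the isomerase Idi1 by 0.92 and the reductase Dhcr7 by 0.90. The regulator Srebf2, added after its values were seen, fell by 0.56 and Srebf1 read -0.09, which did not pass. Mvd, which makes isopentenyl diphosphate, the precursor of both cholesterol and dolichol, was the member that rose (0.71 ± 0.07), from 8.79, 8.64 and 8.69 to 9.46, 9.40 and 9.38. Of 28 phospholipid and triglyceride genes 11 fell and 4 rose. These counts were 6 falls without the first vehicle array, and 1 or 2 rises without the first or second vehicle array or the second array at 12 h. Pcyt2, of phosphatidylethanolamine synthesis, fell by 0.72, and Cept1, which completes both main phospholipids, rose by 0.33.

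Cytosolic chaperones and the proteasome had falls and no rises. Of 30 cytosolic heat shock and chaperonin genes 18 fell and none rose (median -0.16), or 10 fell without the third experiment. Hsph1, an exchange factor for HSP70, read 11.39, 11.25 and 11.43 with vehicle and 10.35, 10.58 and 10.37 at 12 h, a fall of 0.92 ± 0.07, and Dnajb1, an HSP70 co-chaperone, fell by 0.66. The heat shock element (GAA, any 2 bases, TTC, any 2 bases, GAA, either strand) was held by 3 of 26 of their promoters (11.5%), 0.565% of all promoters, 0.474% of those of genes that fell and 0.209% of those of genes that rose. Before the start alone 1 of the 26 promoters held it (3.85%), against 0.443% of all promoters. Of 39 proteasome genes 17 fell and none rose, with a median of -0.14 and Psma7 the lowest (-0.41). Without the third vehicle array or the third array at 12 h, 11 proteasome genes fell. With a whole experiment left out, where fewer arrays were fitted, 5 fell without the first and 6 without the third. For the respiratory chain and ATP synthase, 23 of 81 nuclear genes fell and 1 rose, or 13 fell without the third array at 12 h and none rose without the second or the third vehicle array or the first or second array at 12 h. The falls of this list numbered 14 without the first experiment and 11 without the third. Uqcrh (-0.79) and Sdhd (-0.72), subunits of complexes III and II, were the lowest. Mitochondrial ribosomal protein genes had 20 falls and 9 rises among 77, with Mrpl18 at -0.82 and Mrpl24 at 0.69. The rises lay near the share of 11.9% over all genes. The falls numbered 12 without the third vehicle array and 13 without the first array at 12 h. They numbered 11 without the first experiment and 6 without the third. The medians of these last lists were -0.07 and -0.04.

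Lysosomal genes fell more often than they rose, 15 against 5 of 42, and the rises lay near the share of 11.9% over all genes. Gusb (-0.79), which encodes beta-glucuronidase, Gnptab (-0.67), which makes the mannose 6-phosphate tag of lysosomal enzymes, and Igf2r (-0.56), a receptor for that tag, fell the most, and the protease Ctsl led the rises (0.46). Of 37 autophagy genes 13 rose and 5 fell, or 3 fell without the first or the third array at 12 h. Without the third experiment 8 rose and 2 fell. Atg13, of the initiating kinase complex, read 9.97, 9.91 and 9.98 with vehicle and 10.93, 10.98 and 11.09 at 12 h, a rise of 1.05, while Ulk1, the kinase itself, fell by 0.31 and Tfeb, a regulator of lysosomal genes, by 0.39. The cargo receptors Nbr1 (0.59) and Sqstm1 (0.48) rose. The vacuolar proton pump had 2 rises and 4 falls among 23 genes, near the shares of 11.9% up and 15.8% down over all genes. Its falls numbered 2 without the first vehicle array or the second array at 12 h. It had no rise without the second vehicle array and 1 rise without the first vehicle array or the third array at 12 h. Atp6v1e1 was the lowest (-0.37).

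Of 27 zinc genes 9 rose and 3 fell, and of 18 iron genes 3 rose and 3 fell, against 11.9% up and 15.8% down over all genes; the zinc falls and both iron counts lay near those shares. Slc39a10, an importer at the cell surface, read 10.93, 10.83 and 10.97 with vehicle and 9.57, 9.73 and 9.65 at 12 h. The transporter Slc39a7, which releases zinc from the ER, rose by 0.83, the exporter Slc30a1 by 0.74 and the metallothionein Mt2 by 0.67. Tfrc, which imports transferrin-bound iron, read 11.44, 11.34 and 11.29 with vehicle and 10.12, 10.30 and 9.94 at 12 h (-1.23 ± 0.08), and the endosomal reductase Steap3 fell by 0.59. Hmox1, which degrades haem, read 9.50, 9.45 and 9.44 with vehicle and 10.48, 10.57 and 10.51 at 12 h and rose by 1.06. Of the 24 genes of the NRF2 antioxidant list 2 rose, Hmox1 and the glutathione peroxidase gene Gpx4 (0.19), and 7 fell. Gpx4 did not pass without the second vehicle array or the first or second array at 12 h, which left 1 rise. Glutathione reductase, Gsr, was the lowest (-0.74).

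Most melanocyte genes did not pass the test. Of 13 lineage regulators none rose and 3 fell. Mitf, the master factor of the lineage, read 12.33, 12.33 and 12.38 with vehicle and 12.37, 12.31 and 12.26 at 12 h and did not pass (-0.03 ± 0.06). Mc1r, the melanocortin receptor, fell from 10.84, 10.68 and 10.80 to 9.99, 10.14 and 10.00 (-0.73), Sox5 by 0.34 and Sox10 by 0.23. Pigment and melanosome genes had 6 rises and 7 falls among 32, against 11.9% up and 15.8% down over all genes. The ion exchanger Slc24a4 rose by 0.56 and the melanosome GTPase Rab38 by 0.36, and Dtnbp1 (-0.34), of the melanosome sorting complex, and the transporter Slc45a2 (-0.32) fell. The pigment enzymes Tyr, Tyrp1 and Dct, added after their values were seen, read -0.11, 0.06 and 0.00 and did not pass.

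Death and growth-restraint genes were mixed. Of 16 BCL2 family genes 5 fell, among them both killers and protectors: Bcl2l11, the gene for BIM, fell by 0.68, Bak1 by 0.50, Bid by 0.38 and the protector Bcl2l1 by 0.35. In this family 2 genes rose, 1 killer and 1 protector, near the share of 11.9% over all genes. Bbc3, the gene for PUMA, rose by 0.31 ± 0.08 (6.87, 6.76 and 6.95 with vehicle and 7.21, 7.09 and 7.24 at 12 h). The protector Bcl2 rose by 0.28, and it did not pass without the first vehicle array or the third array at 12 h. Of 25 caspases, death receptors and inhibitors 4 rose and 8 fell, or 3 fell without the first experiment. Casp4 read 6.72, 6.84 and 6.64 with vehicle and 9.21, 9.07 and 9.28 at 12 h, a 5.47-fold rise, while the executioner Casp6 fell by 1.05. The caspase-8 inhibitor Cflar (0.71) and the ligase Birc2 (0.55) rose. Of 24 p53 targets 6 rose and 8 fell, with Sesn2, also a target of ATF4, at 1.34 and its paralog Sesn1 at -0.51. Among 18 FOXO-linked genes 9 rose and 3 fell. Ddit4, which restrains the growth kinase mTORC1, rose by 1.19, and the factor Klf9 and the glucose uptake inhibitor Txnip rose by 0.90 and 0.77.

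Immune genes that changed were mostly lower. Of 28 interferon-stimulated genes 9 fell and 1 rose, or 2 rose without the second vehicle array. Isg20, an RNA exonuclease, read 7.89, 7.91 and 7.81 with vehicle and 9.86, 10.02 and 10.13 at 12 h (2.13 ± 0.08), whereas Irgm1, Dtx3l (-0.82), the factor Irf1 (-0.64) and Rsad2 (-0.60) fell. The second, dimmer probe set of Irf1 differed by 0.113 between the groups, in the other direction. Of 13 class I antigen presentation genes 4 fell and 1, the peptide editor Tapbpl, rose (0.41), or 2 rose without the second array at 12 h, and the proteasome activator Psme2 was the lowest (-0.34).

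Of 32 glycolytic and hypoxia-linked genes, 15 fell and 8 rose, or the rises numbered 4 without the first vehicle array and 5 without the second or the third vehicle array or the second array at 12 h. Vegfa, the angiogenic factor, read 9.72, 9.69 and 9.76 with vehicle and 10.65, 10.80 and 10.63 at 12 h, a rise of 0.97 ± 0.07, and Ndrg1 rose by 0.92. The oxygen sensors Egln1 (-0.73) and Egln3 (-0.73), the glycolytic enzyme Aldoc (-0.74) and the repressor Bhlhe40 (-0.51) fell. Among 33 secreted factors 4 rose and 4 fell, near the shares of 11.9% up and 15.8% down over all genes. Of the 33, 18 lay above the receptor percentile. The chemokines Cxcl10 (0.66) and Ccl5 (0.46) came next after Vegfa, and Igfbp4 (-0.64) was the lowest. Clock genes had 5 rises and 8 falls among 17, or 3 rises without the second or the third array of either group. The repressor Nfil3, which read 8.92, 8.88 and 8.80 with vehicle and 10.30, 10.30 and 10.34 at 12 h, rose by 1.45, and the activators it opposes, Dbp (-0.53) and Tef (-0.51), fell. The splicing kinases Clk4 (0.62), Clk3 (0.41) and Clk1 (0.40) rose, in a list of 14 with 4 rises and 2 falls, or 1 fall without the first or the third array of either group.

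Matrix and adhesion genes changed in both directions. Of 39 matrix genes 7 rose and 10 fell: the laminin chain Lama4 rose by 0.90 and the collagen prolyl hydroxylase subunit P4ha2 by 0.73, while Thbs1 fell by 0.78, the inhibitor Timp2 by 0.64 and the lysyl hydroxylase Plod2 by 0.55. Of 17 integrin subunits 5 fell, or 3 without the first array at 12 h and 8 with array weights, with Itgb3 the lowest (-0.65), and 1, Itgb5, rose (0.48). SRF contractile and caveolar genes had 10 falls and 1 rise among 20, that of Actg2 (0.32), which did not pass without the first or second vehicle array or the first or the third array at 12 h, with the caveolin Cav2 (-0.63) and the adhesion protein Vcl (-0.57) lowest. YAP and TEAD targets had 4 rises, or 2 without the third array of either group or the second array at 12 h, and 3 falls among 15. Tissue factor, F3, rose by 0.86 and Tead4 fell by 0.54.

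The 12 h arrays were also set against the 5 h arrays without doxycycline. This comparison shares the 12 h arrays with the main one, so its values stand beside it and are not a separate test of it. At 12 h 2264 genes (11.4%) were higher and 2719 (13.6%) lower than at 5 h. Against vehicle, 4.08% of all genes tested were higher and 4.94% lower at 5 h, by a comparison that shares the vehicle arrays with the main one, and the counts at 5 h are to be read against those shares. Hspa5 read 12.89, 12.86 and 12.94 there, a difference of -0.01 from vehicle, and was higher at 12 h than at 5 h by 0.70 (limma adjusted p = 3.39e-09). Ero1b differed from vehicle by 0.04 at 5 h and Creld2 by 0.04. Of the 28 chaperone genes 1 rose and 2 fell at 5 h, and 22 were higher at 12 h than at 5 h. The translocon list had no call at 5 h and 20 of 23 genes higher at 12 h than at 5 h, and the coat list 36 of 53. Of the PERK, ATF4 and CHOP genes, 13 of 21 were already higher at 5 h, with Ddit3 at 1.17 and Chac1 at 1.55, and 15 of 21 were higher at 12 h than at 5 h.

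**Figure D4:**
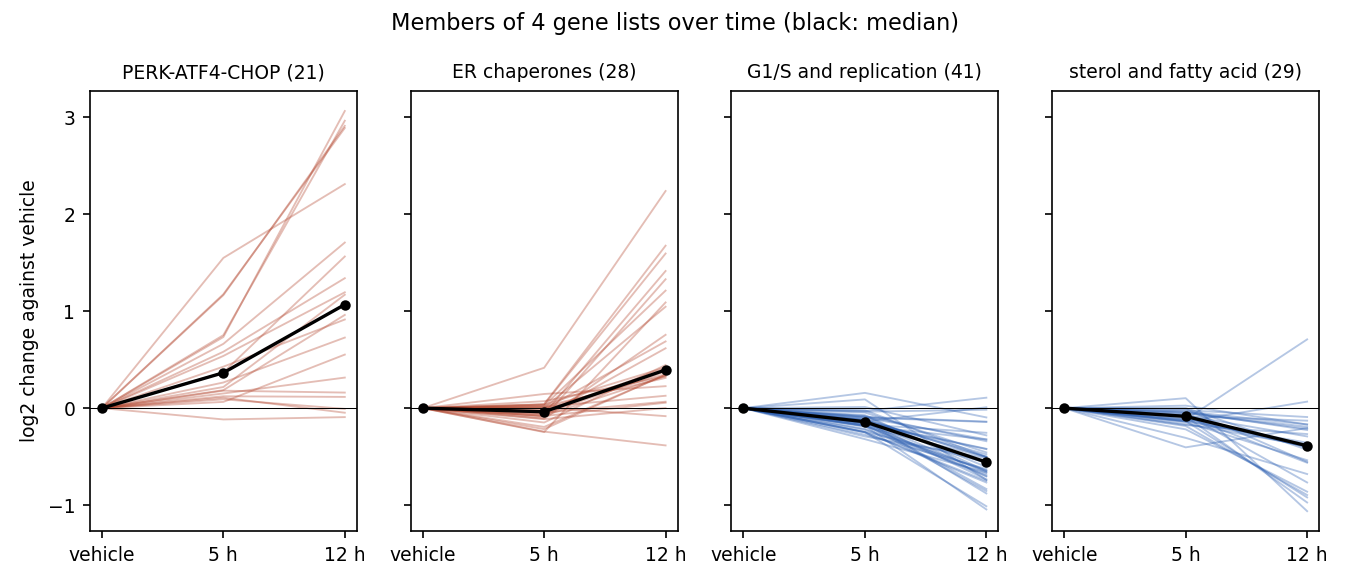
Difference from vehicle (log2) of each measured member of 4 gene lists at 5 h and 12 h of tunicamycin, with the list median in black. The PERK, ATF4 and CHOP median is 0.36 at 5 h and 1.07 at 12 h, the ER chaperone median -0.04 and 0.39, the G1/S median -0.14 and -0.56, and the sterol and fatty acid median -0.09 and -0.39.

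Falls at 12 h also went beyond those at 5 h in these lists, where 4.94% of all genes fell at 5 h. Of G1/S genes 8 of 41 fell at 5 h and 34 were lower at 12 h than at 5 h, and of sterol and fatty acid genes 5 of 29 and 21. G2/M genes had 17 of 37 falls at 5 h and 19 lower values at 12 h than at 5 h. Some genes were further from vehicle at 5 h than at 12 h. Slc39a10 read -1.98 against vehicle at 5 h and -1.26 at 12 h, and was higher at 12 h than at 5 h by 0.72 (limma adjusted p = 5.01e-07). Id1 read 1.64 at 5 h and 0.34 at 12 h, and Id3 1.75 and 0.86. Thbs1 changed sides, from 0.42 at 5 h, where it was higher than vehicle (limma adjusted p = 0.00075), to -0.78 at 12 h. The exporter Slc30a1 read 1.36 and then 0.74, and Mt2 1.09 and then 0.67. In each of these 6 genes the 12 h and 5 h groups differed in the test of 12 h against 5 h.

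The same 12 h of tunicamycin was given to cells that had received doxycycline, and their comparison with doxycycline alone shares no array with the main one. There 2667 genes (13.4%) rose and 3304 (16.6%) fell. Of the ER chaperones 23 of 28 rose and 1 fell, of the PERK, ATF4 and CHOP genes 15 of 21 rose, of the G1/S genes 38 of 41 fell, and of the sterol and fatty acid genes 25 of 29 fell. Ero1b rose by 3.42, Ddit3 by 2.95, Slc7a11 by 2.73 and Hspa5 by 0.90, and Orc1 (-1.03) and Tfrc (-1.09) fell. The test of the difference between both responses called 367 genes (1.84%). Of the ER chaperones 8 had a response with doxycycline that was higher and none lower, among them Fkbp11 (1.67 without and 2.30 with doxycycline) and Dnajb9 (2.24 and 2.74). Of the PERK, ATF4 and CHOP genes 5 had a lower response with doxycycline and none a higher one, among them Nupr1 (3.06 and 2.45) and Atf3 (1.71 and 0.89). Cebpb is also among the 5, and its probe set does not separate the LIP that doxycycline switches on from the longer isoforms.

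**Figure D5:**
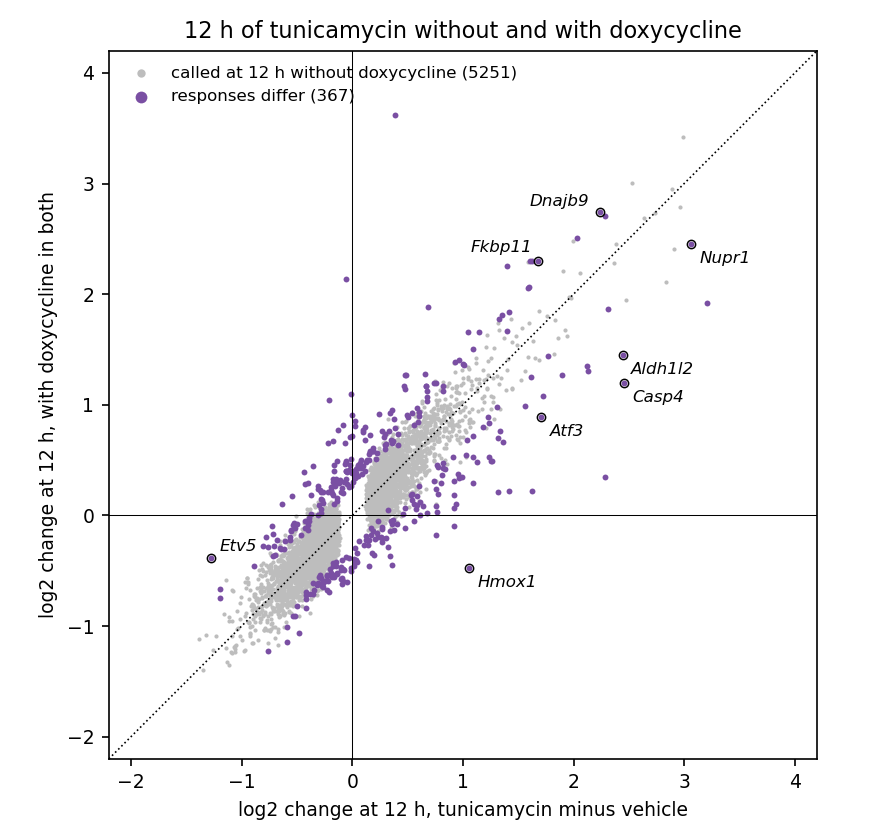
Change at 12 h of tunicamycin without doxycycline (log2, horizontal) and with doxycycline (log2, vertical), 1 point per gene. Grey points are the 5251 genes called without doxycycline whose responses did not pass the test of a difference, purple points the 367 whose responses differed; Hmox1 lies far below the diagonal, at 1.06 without and -0.48 with doxycycline.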

How the data were processed

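Total RNA of cultured cells was measured on Affymetrix arrays. The authors deposited 1 table of log2 values for all 18 arrays; the submitters' processing notes name Partek and RMA, with no version, and neither the annotation build nor other settings. The scale allows no statement on total RNA per cell.

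Of 35557 probe sets, 21789 had a single symbol in the platform annotation, 1621 several and 12147 none; the last 2 kinds were left out. A gene was read by its probe set with the highest mean over the 18 arrays, which gave 19938 genes, 999 of them with several probe sets; among 25 named genes with several, the probe sets disagreed in sign for Irf1, Mitf and Srsf3. Of the listed genes, 71 were not analysed here. limma 3.58.1 in R 4.3.3 (lmFit, contrasts, eBayes) was fitted to 6 group means over all 18 arrays, with 12 residual degrees of freedom and an adjusted p (Benjamini-Hochberg over 19938 genes) under 0.05 as the threshold; tables and figures were made with Python 3.11.15, pandas 2.3.3, numpy 2.4.6 and matplotlib 3.10.9. The fit was tested on simulated data, with an outcome that is not given here. A gene that did not pass is not thereby shown to be unchanged. Errors are standard errors of that fit, and the number of arrays, 3 a group, limits the precision.

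The genes named were the 15 largest rises and 15 largest falls with 1 sign in all 3 experiments, up to 4 rises and 4 falls of each list, and Hspa5, Hsp90b1, Xbp1, Atf6, Ern1, Eif2ak3, Atf4, Ddit3, Atf3, Trib3, Cebpb, Dpagt1, Mitf and Ccnd1 (Cdkn1a, also on that list, was not analysed here); predicted and clone-named genes, histones and receptor genes were left out of the first group. The comparison and the gene lists were chosen with earlier results of these data known. Motifs were searched in RefSeq promoters (GRCm38.p6) of 15563 genes, and stretches were printed for the largest changes outside chromosome 18. Experiment numbers are shared by the groups. The deviations of same-numbered vehicle and 12 h arrays from their group means correlated at 0.104, -0.177 and -0.035. The experiment was not used as a block in the reported values, and the block was fitted as an alternative. Alternatives covered the arrays fitted, the block, normalization, centring, dim genes, variance model, array weights, probe sets, a technical component and leaving out arrays or experiments.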

Additional observations from a re-analysis of the deposited data

Results flagged for a closer look

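The response to 12 h of tunicamycin differed between cells with and without doxycycline in 39 of the 354 genes named by rule. The test was the interaction term of the limma fit at an adjusted p under 0.05. Over all genes tested it called 367 (1.84%). Most named genes were chosen by their change on the vehicle and 12 h arrays, which also enter the interaction. Their count therefore cannot be weighed against that of all genes. Values are the response with doxycycline minus the response without it, on the log2 scale, and each response rests on 3 arrays a group.

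In 15 genes the response with doxycycline was lower. Hmox1 had the largest difference, -1.53 (limma adjusted p = 7.15e-08): it rose without doxycycline, by 1.06, and read -0.48 with it. Its arrays read 9.50, 9.45 and 9.44 with vehicle and 10.48, 10.57 and 10.51 at 12 h, and 9.37, 9.31 and 9.25 with doxycycline alone and 8.68, 9.02 and 8.79 with doxycycline and 12 h of tunicamycin. Casp4 (-1.26), Aldh1l2 (-0.9995), Isg20 (-0.83) and Atf3 (-0.82) came next. The genes Cebpb (-0.62), Nupr1 (-0.61), Lonp1 (-0.48), Chac1 (-0.45) and Slc6a9 (-0.33) belong to the stress, mitochondrial and amino acid lists. The Cebpb probe set does not separate LIP, which doxycycline switches on, from the longer isoforms. Whether its response with doxycycline (0.34, against 0.96 without) is that of the cells' own gene was not tested. The remaining ones were Slc24a4 (-0.60), Itgb5 (-0.41), Mcoln1 (-0.40), Tgif1 (-0.33) and Sox10 (-0.32).

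In 24 genes the response with doxycycline was higher. Those that rose without doxycycline were Fkbp11 (0.63), Pdia5 (0.61), Dnajb9 (0.50), Sec24d (0.48), Creld2 (0.47), Alg5 (0.46), Selenos (0.45), Pdia6 (0.45), Hyou1 (0.42), Herpud1 (0.42), Pgm3 (0.35), Cept1 (0.43) and Nop14 (0.26). Among genes that fell without doxycycline, Etv5 differed the most (0.90, from -1.28 without to -0.38 with it). Plod2 (0.42), Fstl1 (0.74), Thbs1 (0.58), Ccnjl (0.53), Prokr1 (0.45), Igf1r (0.43), Spred2 (0.42), Vcl (0.37), Stim2 (0.34) and Itgav (0.27) also had a fall without doxycycline.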

How the results depend on the processing

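The main counts were 2365 genes up, 3151 down and 187 changed by at least 2-fold. Over 9 alternatives that kept all 6 arrays, the up count ranged from 2175 to 2657, the down count from 3016 to 3564 and the 2-fold count from 183 to 191. With arrays or experiments left out, the up count ranged from 1646 to 2294, the down count from 1971 (without the third experiment, where fewer arrays were fitted) to 3155 and the 2-fold count from 184 to 196. The replicate block, which treats arrays of the same experiment as paired, gave 2419 up, 3211 down and 187 changed by at least 2-fold. Of the named genes, the block ended the call of 1, Rrp9, and of 45 same-numbered pairs over all groups 14 had a correlation over 0.1. Of 351 named and called genes, 18 to 25 lost the call without a single array and 23 to 59 without an experiment. Of 122 list counts, 0 to 8 moved by over 1.5 times with all 6 arrays kept, 9 to 14 without an array and 16 to 42 without an experiment, many of them counts of a few genes. Without the first or the third experiment the lysosomal falls numbered 9 and the hypoxia-linked falls 9. The SRF contractile falls numbered 5 and 6, and the MAP kinase feedback falls 7 without the third. Of the genes named in the report, Eif2ak4, Calcoco1, Ufsp1, Sec24b, Lars2, Sgo1, Sox5, Bbc3, Ier3 and Psme2 were among those that lost the call without an experiment. Averaging probe sets turned Srsf3 from 0.14 to -0.0186 (limma adjusted p = 0.885) because its dimmest probe set differed by -0.38; no other named gene reversed. The share of promoters with ERSE was 0.681% for all genes that rose, 4.69% at the 2-fold threshold and 0.681% when the bases after the start were left out. Leaving them out moved the CHR in the G2/M list from 22 to 11 of 31 promoters, the E2F site in the G1/S list from 12 to 7 of 35, CARE from 7 to 6 of 19 in the PERK, ATF4 and CHOP list, from 4 to 2 of 11 for tRNA synthetases and from 4 to 3 of 22 for amino acid genes, and the heat shock element from 3 to 1 of 26. Setting array medians equal, repeating quantile normalization or adding a receptor component moved the share of rises among called genes from 42.9% to between 41.0% and 44.9%. Of the called genes 149 lay under the receptor percentile, where signal over background is low. The cause of these differences was otherwise not tested.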
